A study of Mus musculus with 4 samples.

Results

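The genes described here are 45 components of the T cell receptor (TCR) complex and of the signalling steps that follow it most closely. They were matched by gene symbol from a list that holds the CD3 subunits, coreceptors and accessory receptors, kinases, phosphatases, adaptors, lipid enzymes and Ras exchange factors, ubiquitin ligases and Sts proteins, and Bcl10 and Malt1. All 45 were among the 23990 gene symbols of the deposited tables. Of these, 44 had a mean of at least 1 FPKM in at least one tissue and were tested together with all other such genes (10634). FPKM counts fragments for each kilobase of a transcript, divided by the size of the library, and values were summed over the transcripts of a gene. Cd8a was under this minimum and is given by its values alone.

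The study compared effector CD4 cells (CD44+CD4) sorted at the onset of experimental autoimmune encephalomyelitis (EAE) from the spinal cord, labelled CNS, with those sorted from draining lymph nodes (dLN). EAE is a mouse model of multiple sclerosis, started here by immunization with a MOG peptide of myelin. All mice were wild type C57BL/6 by the labels (C57BL/6J in the study's methods), and there was no group without immunization. There were 2 libraries per tissue. The dLN cells were pooled, and the study's wording does not settle whether the spinal cords were pooled too. The labels name neither ages nor separate animals, so all p-values measure the spread between these libraries only. The study's methods describe stimulation of the sorted cells with PMA and ionomycin, whereas the labels speak of freshly sorted cells and name no stimulation. PMA stands in for diacylglycerol and ionomycin raises calcium, so both act downstream of the receptor.

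The TCR has no enzyme activity of its own. When it binds peptide on MHC, the kinase Lck, brought in by CD4, phosphorylates tyrosine motifs (ITAMs) in the CD3 and zeta chains, ZAP-70 docks there, and ZAP-70 in turn phosphorylates the adaptors LAT and SLP-76. On this scaffold, phospholipase C gamma makes diacylglycerol and inositol trisphosphate, which lead to Ras, protein kinase C theta and NF-kappaB, and calcium. Phosphatases, Csk, diacylglycerol kinases and Cbl ubiquitin ligases hold the pathway back. Autoreactive CD4 cells are primed in the lymph node and meet myelin antigen again in the CNS.

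By an estimate from the spacing of low FPKM, each library held 18.6 M to 21.9 M fragments, and the median member was covered by 4034 fragments on average. Across genes, which are not independent replicates, Pearson's r between replicates on the log2 scale was 0.976 (CNS) and 0.986 (dLN). All 4 Y-linked genes examined were listed at 0 in both dLN libraries and were read at 3.34 to 44.7 FPKM in CNS, while Xist reached at most 0.0026 FPKM there and 26.6 and 22.3 FPKM in the dLN libraries. The sex of the mice and the tissue therefore cannot be told apart. Summed over the 10 myeloid marker genes in the tables, levels were 20.7 FPKM in CNS replicate 1, 238 FPKM in CNS replicate 2 and 4.91 and 4.24 FPKM in dLN. The 3 neutrophil markers in the tables summed to 0.767 and 197 FPKM in CNS and to at most 0.0229 FPKM in dLN. CNS replicate 2 thus stood apart by markers of other leukocytes, and 9 of the 10 myeloid markers were higher there than in CNS replicate 1. The B cell marker Pax5 was listed at 0 in all 4 libraries, and the 6 B cell markers summed to at most 2.36 FPKM. NK cell markers summed to at most 4.55 FPKM in CNS and to at most 0.0865 FPKM in dLN. Endothelial markers summed to 20.7 and 25.3 FPKM in CNS and to 12.04 and 9.66 FPKM in dLN. Most of the endothelial sum was Pecam1, at 18.7 and 20.1 FPKM in CNS, and in dLN nearly all of it was. Cldn5 was at 1.36 and 3.32 FPKM in CNS and was listed at 0 in dLN. Cdh5 was at 0.599 and 1.96 FPKM in CNS and at most at 0.0142 FPKM in dLN. The 9 neural markers summed to between 51.3 and 58.0 FPKM in every library, most of it Mbp, which hides differences in the others. Mbp was at 48.6 and 44.5 FPKM in CNS and at 55.5 and 57.7 FPKM in dLN. Nefl was at 1.34 and 7.01 FPKM and Gfap at 0.655 and 2.51 FPKM in CNS, and both were listed at 0 in dLN. A mean of at least 1 FPKM was reached by 4 of the 9 in CNS and by 1 in dLN. Cd44, the gene of the sorting marker, was at 112 FPKM in both CNS libraries and at 176 and 157 FPKM in the dLN libraries. Genes of the constant regions of the TCR alpha and beta chains were searched by symbol and were not among the deposited symbols, so they have no values here.

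Most of the TCR genes differed between the tissues, and more were higher in CNS than lower. Of the 44 tested, 34 had a Benjamini-Hochberg adjusted p under 0.05 in limma on log2(FPKM + 1), against 74.9% of all genes tested, so the number of changed members was close to the background. In direction, 24 members were higher and 10 lower in CNS, where 37.8% and 37.2% of all genes were higher and lower. At least 2-fold differences were found in 18 members that were higher (21.0% of all genes) and in 6 that were lower (18.2% of all genes). The values of the 2 tissues did not overlap in 41 members, as in 89.4% of all genes. The median log2 ratio of CNS over dLN was 0.75 for the members and 0.05 for all genes tested, and the median size of the ratio was 1.11 and 0.80. On this scale the ratios of low genes are understated. With the libraries scaled to the same sum, 22 members were higher and 13 lower, and with the same upper quartile 26 and 9. In bulk samples, fewer cells of a type and less RNA per cell cannot be told apart. For any single gene, the smallest two-sided p that exact permutation allows with 2 libraries per tissue is 0.333.

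**Figure D1:**
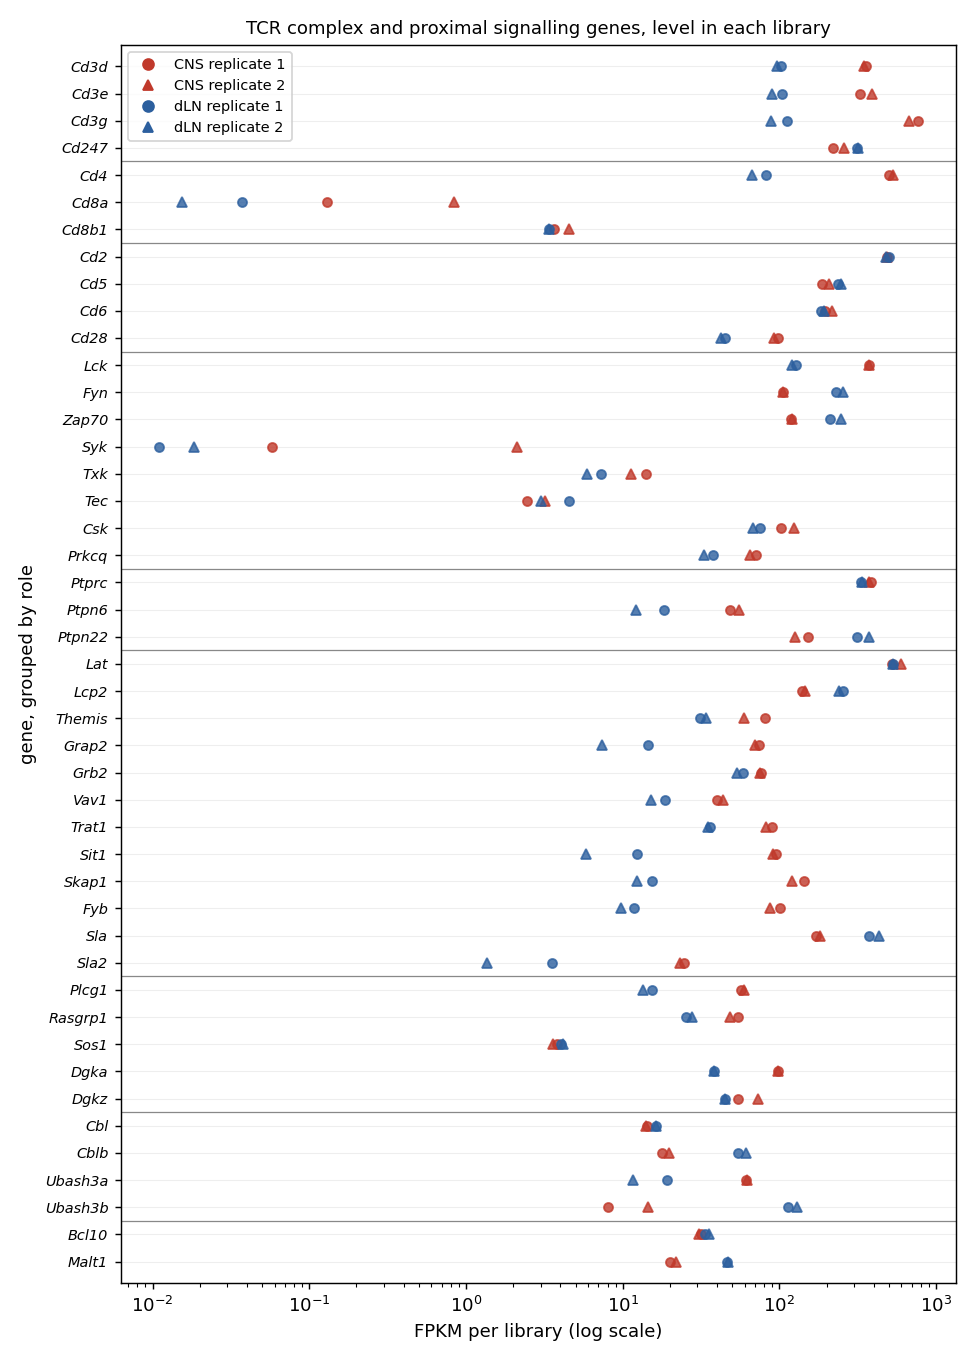
FPKM of the 45 genes in each of the 4 libraries on a log axis, grouped by role, with CNS in red and dLN in blue. Cd3d, Cd3e, Cd3g and Cd4 lie to the right in CNS, Fyn, Zap70 and Ubash3b lie to the right in dLN, and Cd2 and Lat have overlapping values.

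The CD3 complex was split. Its subunits delta, epsilon and gamma, encoded by Cd3d, Cd3e and Cd3g, were 3.54-fold, 3.71-fold and 7.15-fold higher in CNS, whereas Cd247, which encodes the zeta chain with most of the ITAMs of the receptor, was lower in CNS by 1.32-fold. Cd3g was at 761 and 674 FPKM in CNS and at 112 and 88.4 FPKM in dLN (log2 ratio 2.83, SE 0.14, adjusted p = 0.000122). Cd3e was at 328 and 389 FPKM in CNS and at 104 and 89.2 FPKM in dLN (log2 ratio 1.88, SE 0.13, adjusted p = 0.000243). Cd3d was at 356 and 345 FPKM in CNS and at 102 and 96.4 FPKM in dLN (log2 ratio 1.81, SE 0.075, adjusted p = 9.18e-05). For these 3 chains the CNS replicates were far above the dLN replicates. Cd247 was at 219 and 258 FPKM in CNS and at 313 and 319 FPKM in dLN (log2 ratio -0.41, SE 0.10, adjusted p = 0.0170), with no overlap but a much smaller distance. Without dLN replicate 1 or 2 the adjusted p of Cd247 was 0.0753 and 0.0893. The kit does not mark strand, so reads from exons shared by 2 genes on opposite strands cannot be told apart. Exons of Cd247, taken over all its annotated transcripts, share 3007 bases with Pou2f1 on the opposite strand. The transcript of 1686 bases made up between 91.3% and 92.1% of Cd247 in every library. How much of that transcript lies in the shared bases was not examined.

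Within a library, the 4 chains had different proportions in the 2 tissues. Cd247 made up 13.2% and 15.5% of their summed FPKM in CNS and 49.6% and 53.8% in dLN. Cd3g made up 45.8% and 40.5% in CNS and 17.8% and 14.9% in dLN. Cd3g was thus the largest of the 4 in CNS and Cd247 the largest in dLN. Per library, Cd247 was at 0.288 and 0.383 times the level of Cd3g in CNS and at 2.79 and 3.61 times in dLN. The ratio of Cd3d to Cd3e, in contrast, was 1.09 and 0.888 in CNS and 0.979 and 1.08 in dLN, which overlapped. These ratios do not depend on how libraries are scaled to each other.

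**Figure D2:**
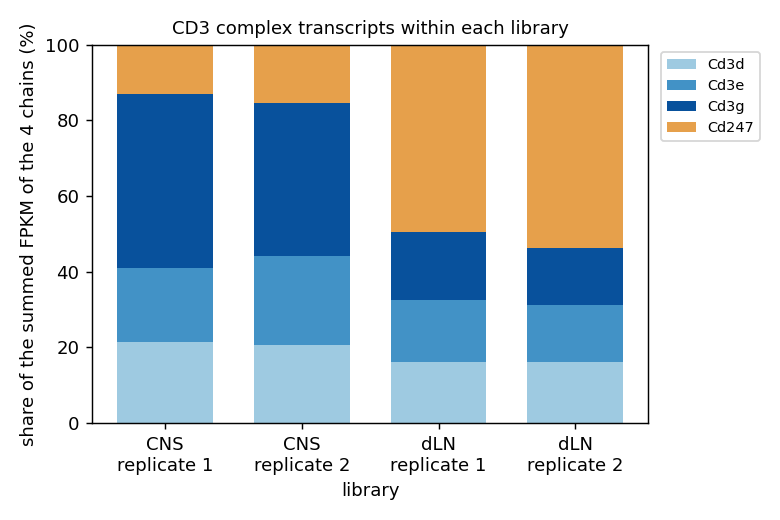
Share of Cd3d, Cd3e, Cd3g and Cd247 in the summed FPKM of the 4 chains (%), 1 stacked bar per library. The Cd247 share is 13.2% and 15.5% in the CNS libraries and 49.6% and 53.8% in the dLN libraries.

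Cd3d, Cd3e and Cd3g lie next to each other on chromosome 9 (mm10), Cd3g at chr9:44969572-44980431 on the minus strand, Cd3d at chr9:44981786-44987052 on the plus strand and Cd3e at chr9:44998743-45009590 on the minus strand, whereas Cd247 is at chr1:165788681-165871153. The start regions of the 3 genes that were higher together are shown for comparison, from 250 bases before to 50 after the start, as given by RefSeq for GRCm38.p6, 5′ to 3′ on the strand of the gene. Capitals mark AGGAAG, a core read by ETS factors, and CAGCTG, an E-box, on either strand. The windows are chr9:44980382-44980681 on the minus strand for Cd3g, chr9:44981536-44981835 on the plus strand for Cd3d and chr9:45009562-45009861 on the minus strand for Cd3e.
Cd3g: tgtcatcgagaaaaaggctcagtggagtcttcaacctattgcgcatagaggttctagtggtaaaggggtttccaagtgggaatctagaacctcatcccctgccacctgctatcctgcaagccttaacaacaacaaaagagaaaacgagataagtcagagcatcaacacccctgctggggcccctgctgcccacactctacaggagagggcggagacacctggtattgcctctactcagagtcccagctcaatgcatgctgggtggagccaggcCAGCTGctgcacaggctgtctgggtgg
Cd3d: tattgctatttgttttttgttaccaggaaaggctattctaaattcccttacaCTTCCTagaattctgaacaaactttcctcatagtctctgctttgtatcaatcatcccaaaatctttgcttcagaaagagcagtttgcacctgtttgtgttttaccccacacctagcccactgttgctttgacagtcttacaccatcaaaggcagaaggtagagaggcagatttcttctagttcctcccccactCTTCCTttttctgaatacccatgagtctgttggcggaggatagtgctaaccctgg
Cd3e: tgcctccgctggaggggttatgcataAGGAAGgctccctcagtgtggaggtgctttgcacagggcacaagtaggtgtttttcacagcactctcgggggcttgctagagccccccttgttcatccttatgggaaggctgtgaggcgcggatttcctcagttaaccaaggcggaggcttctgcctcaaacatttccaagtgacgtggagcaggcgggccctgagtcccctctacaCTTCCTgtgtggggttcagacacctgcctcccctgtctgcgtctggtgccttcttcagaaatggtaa
The Cd3d window held AGGAAG at 198 and 5 bases before the start, the Cd3e window held it at 224 and 17 bases before the start, and the Cd3g window did not hold it. The Cd3g window held CAGCTG at 24 bases after the start. Over the members, 37 of 45 had such a window, and some had several (52 windows). AGGAAG was found for 24 of these 37 genes (64.9%), against 38.4% of all 27025 genes with a window. A gene counted if any of its windows held the letters, so genes with several windows had more chances. All genes together had 32851 windows, of which 35.4% held AGGAAG, and this share per window was not counted for the members. Of the members with a window it was found for 12 of 21 that were higher in CNS, 7 of 8 that were lower and 5 of 8 that were not called. The other letters searched were TGTGGT of RUNX factors (8 of 37 members and 18.9% of all genes), CAGCTG (9 of 37 and 18.3%), GGAAAA of NFAT (9 of 37 and 26.1%) and TGAGTCA of AP-1 (0 of 37 and 5.95%), on both strands. AGGAAG and GGAAAA share the letters GGAA. A match is a description of these letters and not a binding site.

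Cd4 followed the 3 CD3 genes. It encodes the coreceptor that binds MHC class II and carries Lck, and was at 502 and 531 FPKM in CNS and at 82.0 and 66.7 FPKM in dLN, 6.94-fold higher in CNS (log2 ratio 2.79, SE 0.12, adjusted p = 9.45e-05). The 2 chains of CD8, the coreceptor of cytotoxic T cells, were low throughout. Cd8b1 was at 3.66 and 4.56 FPKM in CNS and at 3.38 and 3.38 FPKM in dLN, and did not pass the test (log2 ratio 0.22, 95% interval -0.12 to 0.55). Cd8a was at 0.130 and 0.834 FPKM in CNS, about 8 and 53 fragments, and at 0.0370 and 0.0154 FPKM in dLN, about 2 and 1 fragments. Most of the Cd8a fragments thus came from CNS replicate 2.

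The accessory receptors moved little apart from Cd28. Cd28, the main costimulatory receptor, was 2.18-fold higher in CNS (log2 ratio 1.10, SE 0.083, adjusted p = 0.000314). Cd5, an inhibitory receptor whose level reflects TCR signal strength in thymocytes, was 1.22-fold lower in CNS (log2 ratio -0.29, adjusted p = 0.0353), and it lost the call under 6 of the alternatives. Cd2, an adhesion receptor, was at nearly the same level in all 4 libraries, between 480 and 502 FPKM (log2 ratio -0.01, 95% interval -0.19 to 0.16). Cd6, a relative of Cd5, had a log2 ratio of 0.12 (95% interval -0.11 to 0.36) and did not pass the test. The ratio of Cd28 to Cd2 within a library was 0.201 and 0.191 in CNS and 0.0899 and 0.0887 in dLN.

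The kinases that start the signal also split. Lck was at 372 and 374 FPKM in CNS and at 128 and 120 FPKM in dLN, 3.01-fold higher in CNS (log2 ratio 1.58, SE 0.075, adjusted p = 0.000109). Fyn, the other Src family kinase of T cells, was at 105 and 106 FPKM in CNS and at 229 and 256 FPKM in dLN, 2.30-fold lower in CNS (log2 ratio -1.19, SE 0.087, adjusted p = 0.000296). Zap70, which binds the phosphorylated ITAMs, was at 119 and 121 FPKM in CNS and at 209 and 245 FPKM in dLN, 1.90-fold lower in CNS (log2 ratio -0.91, SE 0.10, adjusted p = 0.00106). Replicates of these 3 kinases lay close together, and the tissues did not overlap. Within a library, Lck was at 3.54 and 3.53 times the level of Fyn in CNS and at 0.557 and 0.469 times in dLN, so the order of the pair was opposite in the 2 tissues. Zap70 was at 0.318 and 0.324 times the level of Lck in CNS and at 1.64 and 2.05 times in dLN.

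Syk, the relative of Zap70 that serves B cells and myeloid cells, was at 0.0580 and 2.13 FPKM in CNS, about 6 and 226 fragments, and at 0.0110 and 0.0184 FPKM in dLN, about 1 and 2 fragments. Its log2 ratio was 0.84 (SE 0.53, adjusted p = 0.204), and 1 library, CNS replicate 2, set it. Syk entered the test with a CNS mean of 1.09 FPKM, which reached the minimum through CNS replicate 2 alone. Without CNS replicate 1 the log2 ratio of Syk was 1.63, and without CNS replicate 2 it was 0.060. CNS replicate 2 was also the library with the high myeloid markers, and their part in the Syk value was not tested.

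The other kinases were mostly higher in CNS. Txk, a Tec family kinase of T cells that phosphorylates phospholipase C gamma, was at 14.1 and 11.3 FPKM in CNS and at 7.26 and 5.91 FPKM in dLN (log2 ratio 0.85, SE 0.15, adjusted p = 0.00523). Tec itself was at 2.46 and 3.19 FPKM in CNS and at 4.58 and 3.03 FPKM in dLN, with overlapping tissues (log2 ratio -0.32, 95% interval -0.85 to 0.21). Prkcq, which encodes protein kinase C theta and passes the diacylglycerol signal on to NF-kappaB, had a log2 ratio of 0.92 (adjusted p = 0.00100). Csk, which phosphorylates the inhibitory tyrosine of Lck, had a log2 ratio of 0.65 (adjusted p = 0.00642). Lck was at 3.63 and 3.02 times the level of Csk in CNS and at 1.70 and 1.77 times in dLN.

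Lck has transcripts from a pair of start regions, a distal one that serves mature T cells and a proximal one best known from thymocytes. The transcript of the distal start was at 337 and 343 FPKM in CNS and at 125 and 116 FPKM in dLN. The 2 transcripts of the proximal start summed to 35.2 and 30.8 FPKM in CNS and to 3.07 and 3.41 FPKM in dLN. The distal start thus gave most of Lck in every library, and the proximal share was 9.45% and 8.22% in CNS and 2.41% and 2.84% in dLN. The FPKM of single transcripts rest on how a program, not named in the sources used here, divided fragments between transcripts that share most exons, so these shares are estimates. Both windows are shown because the 2 sets of transcripts differed in proportion, from RefSeq for GRCm38.p6, 5′ to 3′ on the minus strand, distal at chr4:129573592-129573891 and proximal at chr4:129558323-129558622, with AGGAAG and TGTGGT on either strand in capitals.
Lck distal: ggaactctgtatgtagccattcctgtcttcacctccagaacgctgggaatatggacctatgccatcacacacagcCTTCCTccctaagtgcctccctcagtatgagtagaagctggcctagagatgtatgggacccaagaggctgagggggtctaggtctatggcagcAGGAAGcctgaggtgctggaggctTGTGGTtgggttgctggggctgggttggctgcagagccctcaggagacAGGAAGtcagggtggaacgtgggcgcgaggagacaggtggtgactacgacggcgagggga
Lck proximal: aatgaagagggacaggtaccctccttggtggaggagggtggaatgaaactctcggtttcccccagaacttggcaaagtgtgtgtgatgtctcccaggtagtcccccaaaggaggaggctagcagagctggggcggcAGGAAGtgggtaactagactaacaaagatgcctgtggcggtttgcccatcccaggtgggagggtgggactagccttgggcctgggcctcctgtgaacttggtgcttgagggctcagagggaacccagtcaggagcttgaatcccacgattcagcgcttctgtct
The distal window held AGGAAG at 175, 82 and 10 bases before the start and TGTGGT at 58 bases before it. The proximal window held AGGAAG once, at 114 bases before the start, and no TGTGGT.

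The 3 phosphatases went 3 ways. Ptpn6 encodes SHP-1, which dephosphorylates proximal signalling proteins, and was at 48.3 and 55.3 FPKM in CNS and at 18.5 and 12.1 FPKM in dLN, 3.39-fold higher in CNS (log2 ratio 1.72, SE 0.21, adjusted p = 0.00141). Ptpn22, whose product removes the activating phosphates of Lck and ZAP-70, was 2.46-fold lower in CNS (log2 ratio -1.30, SE 0.14, adjusted p = 0.000896). Ptprc, which encodes CD45 and keeps Lck ready by removing its inhibitory phosphate, did not pass the test as a gene (log2 ratio 0.18, 95% interval -0.0028 to 0.35). Ptpn6 was at 0.317 and 0.442 times the level of Ptpn22 in CNS and at 0.0588 and 0.0327 times in dLN. Ptpn6 is also expressed by myeloid cells, whose markers had a higher sum in CNS. Of the 10 markers, 5 were called higher in CNS (37.8% of all genes tested) and 0 lower. The part of myeloid cells in the Ptpn6 value was not tested.

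The transcripts of Ptprc, however, differed between the tissues. The transcript of 5177 bases was at 233 and 195 FPKM in CNS and at 83.7 and 81.7 FPKM in dLN. The transcript of 5249 bases was at 148 and 174 FPKM in CNS and at 243 and 248 FPKM in dLN. The first made up 61.0% and 52.4% of the gene in CNS and 25.3% and 24.3% in dLN, so the main transcript was a different one in each tissue. In GENCODE M21 (GRCm38), the shorter transcript lacks an exon of 72 bases at chr1:138116954-138117025, and both lack the variable exons of 129, 147 and 141 bases, as in the CD45RO form of activated and memory T cells. The transcript of 5568 bases with all 3 variable exons was at 0.839 and 2.71 FPKM in CNS and at 4.35 and 6.67 FPKM in dLN, between 0.219% and 1.98% of the gene.

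**Figure D3:**
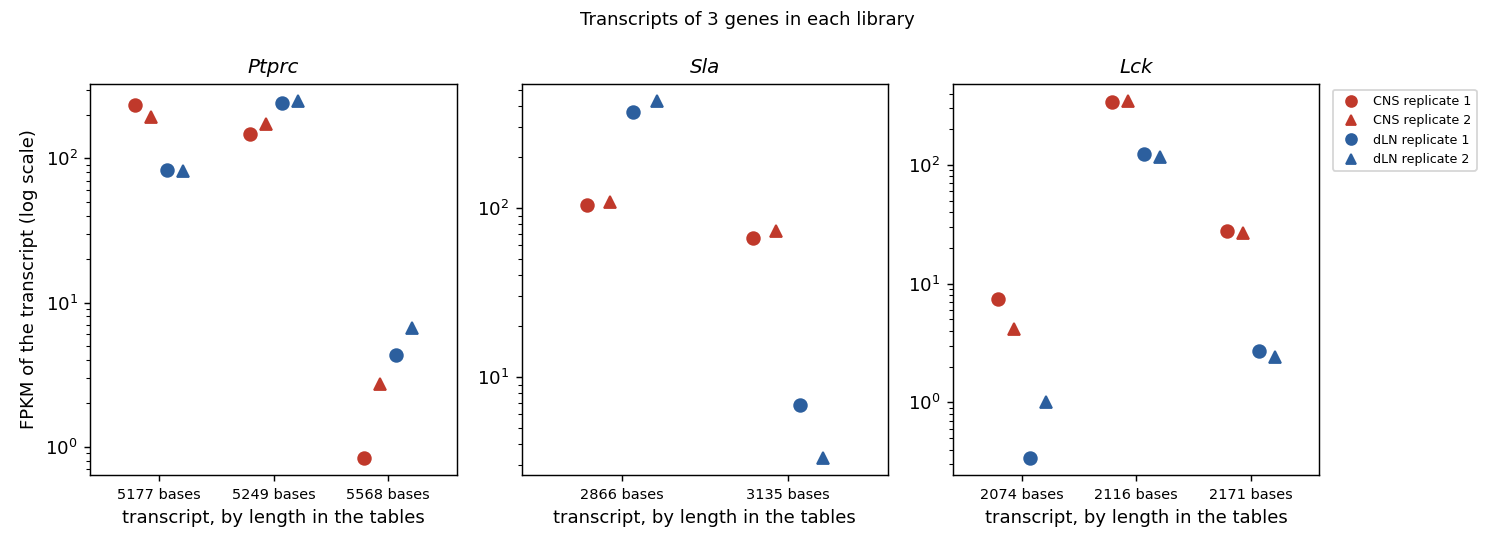
FPKM (log axis) of the transcripts of Ptprc, Sla and Lck, named by their length in the tables, in each library. The 5177-base and 5249-base transcripts of Ptprc swap order between CNS and dLN, and the 3135-base transcript of Sla and the 2074-base and 2171-base transcripts of Lck are low in dLN.

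Of the 12 adaptors, 9 were higher in CNS, 2 were lower and 1 was not called, beside 37.8% higher and 37.2% lower over all genes tested. The 4 largest rises among them were in Sit1, Skap1, Fyb and Sla2. Sit1, a transmembrane adaptor that dampens TCR signals (chr4:43482083-43483709), was at 95.5 and 91.2 FPKM in CNS and at 12.3 and 5.79 FPKM in dLN (10.3-fold, log2 ratio 3.31, SE 0.32, adjusted p = 0.000681). Skap1 and Fyb encode SKAP55 and ADAP, which bind each other and link the TCR to integrin activation. Skap1 (chr11:96464591-96759622) was at 143 and 121 FPKM in CNS and at 15.3 and 12.3 FPKM in dLN (9.55-fold, log2 ratio 3.17, SE 0.14, adjusted p = 0.000101). Fyb (chr15:6579847-6665608) was at 101 and 87.0 FPKM in CNS and at 11.9 and 9.80 FPKM in dLN (8.68-fold, log2 ratio 3.01, SE 0.13, adjusted p = 9.81e-05). These binding partners therefore had similar levels to each other in both tissues. Grap2, which encodes GADS, the bridge between LAT and SLP-76, was at 74.5 and 70.1 FPKM in CNS and at 14.5 and 7.33 FPKM in dLN (6.63-fold, log2 ratio 2.69, SE 0.30, adjusted p = 0.00106).

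Of the scaffold that GADS joins, neither partner was higher in CNS beyond the test. Lat was among the highest members in every library, between 526 and 601 FPKM (log2 ratio 0.08, 95% interval -0.15 to 0.32). Lcp2, which encodes SLP-76, was 1.73-fold lower in CNS (log2 ratio -0.79, SE 0.077, adjusted p = 0.000676). Exons of Lcp2 share 282 bases with an opposite-strand gene. Lat was at 3.76 and 4.11 times the level of Lcp2 in CNS and at 2.10 and 2.19 times in dLN. Grb2, the adaptor of Sos1 and a relative of GADS, rose slightly (log2 ratio 0.43, adjusted p = 0.00811). The call of Grb2 was lost with libraries scaled to the same sum (adjusted p = 0.0714) and without dLN replicate 2 (adjusted p = 0.0553). Grap2 was at 0.969 and 0.931 times the level of Grb2 in CNS and at 0.246 and 0.136 times in dLN. Vav1, an exchange factor for Rac that binds SLP-76, had a log2 ratio of 1.27 (adjusted p = 0.000695). Trat1, a transmembrane adaptor that binds the zeta chain, had a log2 ratio of 1.24 (adjusted p = 0.000263), and Themis, a T lineage adaptor that binds Grb2 and SHP-1, one of 1.07 (adjusted p = 0.00306).

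The SLAP proteins, which bring the TCR complex to Cbl for degradation, moved in opposite directions. Sla (chr15:66780819-66831829) was at 171 and 180 FPKM in CNS and at 374 and 429 FPKM in dLN, 2.29-fold lower in CNS (log2 ratio -1.19, SE 0.096, adjusted p = 0.000395). Sla2 (chr2:156872922-156887078) was at 24.7 and 23.3 FPKM in CNS and at 3.53 and 1.36 FPKM in dLN, 9.80-fold higher in CNS (log2 ratio 2.93, SE 0.32, adjusted p = 0.000941). Sla remained the higher of the pair in every library, with Sla2 at 0.145 and 0.129 times its level in CNS and at 0.00944 and 0.00318 times in dLN. Exons of Sla2 share 731 bases with Rab5if on the opposite strand. The fall of Sla was in 1 transcript. That of 2866 bases was at 104 and 108 FPKM in CNS and at 367 and 426 FPKM in dLN, whereas that of 3135 bases was at 66.6 and 72.5 FPKM in CNS and at 6.84 and 3.33 FPKM in dLN. The second has an additional exon of 269 bases (chr15:66812529-66812797) and a coding sequence of 843 bases in place of 891. Of the 14 members with several transcripts and at least 10 FPKM in both tissues, Sla and Ptprc were the 2 whose shares differed by at least 10 percentage points without overlap, and in 8 the shares differed by less than 5 points.

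Downstream of the scaffold, enzymes of diacylglycerol and Ras were mostly higher in CNS. Plcg1 encodes phospholipase C gamma 1 (chr2:160731310-160775760) and was at 57.0 and 59.0 FPKM in CNS and at 15.3 and 13.4 FPKM in dLN, 4.05-fold higher in CNS (log2 ratio 1.95, SE 0.099, adjusted p = 0.000124). Rasgrp1, the Ras exchange factor that diacylglycerol recruits, had a log2 ratio of 0.93 (adjusted p = 0.00107), while Sos1, the one that Grb2 recruits, was low in both tissues, between 3.61 and 4.17 FPKM (log2 ratio -0.12, 95% interval -0.38 to 0.14). The diacylglycerol kinases, which remove that lipid, rose as well. Dgka was at 98.1 and 98.0 FPKM in CNS and at 38.5 and 38.2 FPKM in dLN (log2 ratio 1.33, SE 0.075, adjusted p = 0.000159). Dgkz was at 54.6 and 72.8 FPKM in CNS and at 45.3 and 45.2 FPKM in dLN (log2 ratio 0.47, SE 0.15, adjusted p = 0.0397), and it lost the call under 5 of the alternatives. Dgka was at 1.80 and 1.35 times the level of Dgkz in CNS and at 0.850 and 0.845 times in dLN. Exons shared with an opposite-strand gene span 379 bases in Plcg1, 222 bases in Dgkz and 105 bases in Dgka.

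Among the genes that hold the pathway back through ubiquitin or through the Sts phosphatases, the Sts pair was split most widely. Ubash3b encodes Sts-1, which dephosphorylates ZAP-70 (chr9:41013641-41157494), and was at 8.03 and 14.4 FPKM in CNS and at 114 and 130 FPKM in dLN, 10.9-fold lower in CNS (log2 ratio -3.38, SE 0.27, adjusted p = 0.000374). Ubash3a, which encodes its less active relative Sts-2 (chr17:31208066-31242403), was at 61.0 and 61.8 FPKM in CNS and at 19.2 and 11.6 FPKM in dLN, 3.98-fold higher in CNS (log2 ratio 1.97, SE 0.23, adjusted p = 0.00130). Ubash3b had the largest fall of the 44 tested members, and Ubash3a was the higher of the pair in CNS and the lower in dLN. Their ratio, Ubash3a over Ubash3b, was 7.60 and 4.28 in CNS and 0.169 and 0.0892 in dLN. Cblb, an E3 ligase that raises the need for CD28 costimulation (chr16:52031549-52208046), was at 17.9 and 19.7 FPKM in CNS and at 54.1 and 60.9 FPKM in dLN, 3.06-fold lower in CNS (log2 ratio -1.56, SE 0.10, adjusted p = 0.000232). Cbl was at 14.4 and 14.0 FPKM in CNS and at 16.4 and 16.2 FPKM in dLN and did not pass the test (log2 ratio -0.19, 95% interval -0.41 to 0.025). Cbl was at 0.801 and 0.710 times the level of Cblb in CNS and at 0.303 and 0.267 times in dLN.

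Malt1 and Bcl10 bind each other and take the signal of protein kinase C theta to NF-kappaB. Malt1 was 2.21-fold lower in CNS (log2 ratio -1.11, SE 0.086, adjusted p = 0.000347). Bcl10 did not pass the test (log2 ratio -0.15, 95% interval -0.37 to 0.071).

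**Figure D4:**
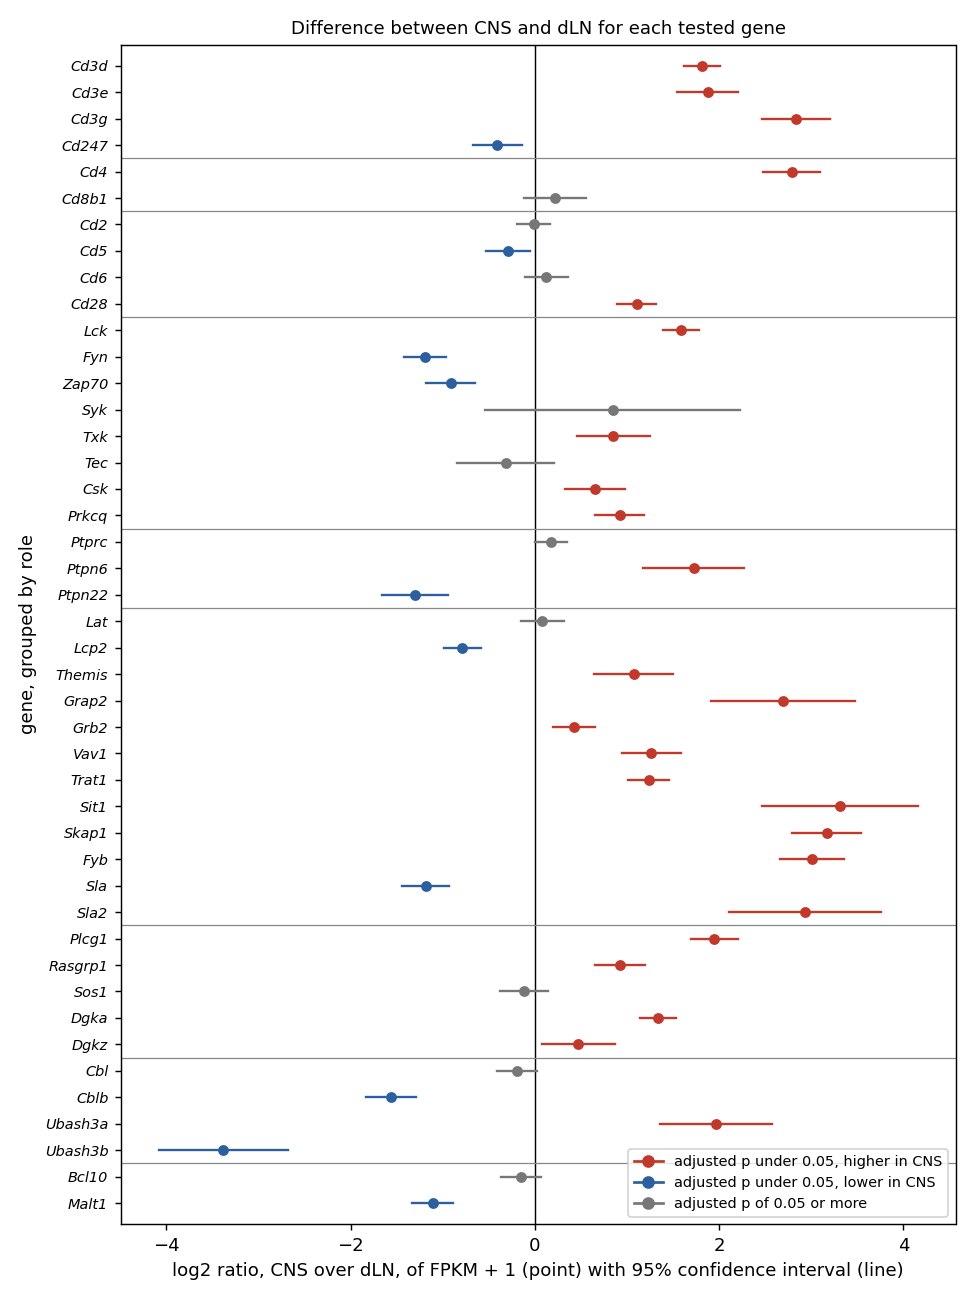
Log2 ratio of CNS over dLN, on log2(FPKM + 1), for the 44 tested genes with 95% intervals from limma, grouped by role. The ratios run from -3.38 (Ubash3b) to 3.31 (Sit1), with 24 genes called higher and 10 called lower in CNS.

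Positive and negative regulators were thus found on both sides. Higher in CNS were Lck, Plcg1, Cd28 and the adaptors Grap2 and Vav1, but also Sit1, Ptpn6, Dgka, Ubash3a and Sla2, which restrain the signal. Lower in CNS were Zap70, Fyn, Lcp2 and Malt1, but also Ptpn22, Cblb, Ubash3b and Sla.

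**Figure D5:**
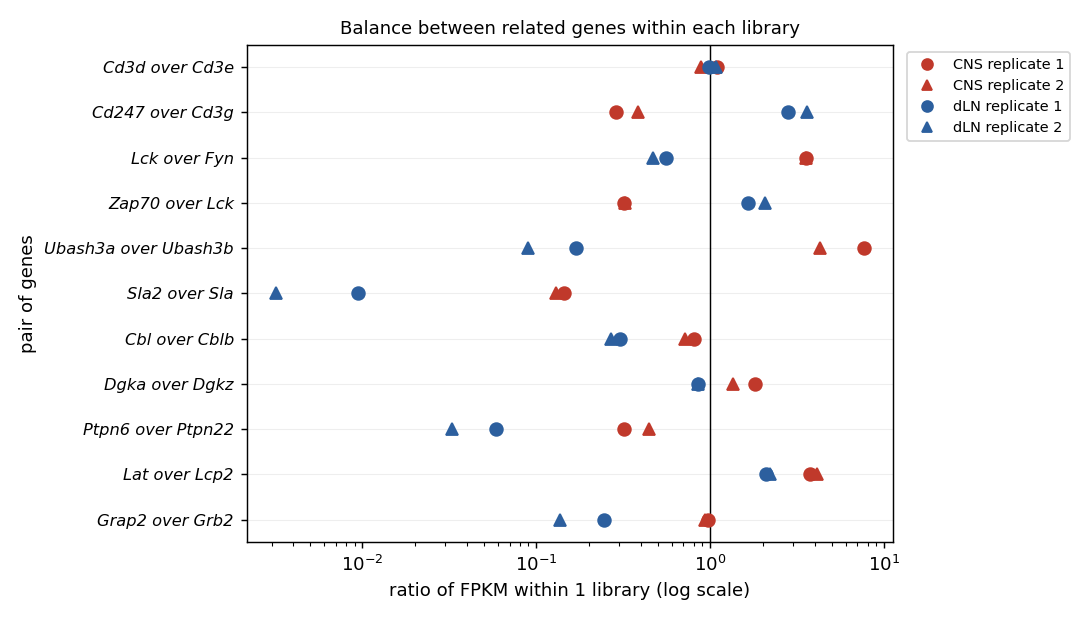
Ratio of the FPKM of 2 related genes within each library (log axis, line at 1), for 11 pairs. CNS and dLN libraries are apart in every pair shown except Cd3d over Cd3e, and Ubash3a over Ubash3b is farthest apart, at 7.60 and 4.28 in CNS and 0.169 and 0.0892 in dLN.

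The order of the members by level differed between the tissues. In CNS the highest were Cd3g (mean 718 FPKM), Lat (564 FPKM), Cd4 (516 FPKM) and Cd2 (487 FPKM), of which Lat and Cd4 overlapped between libraries. In dLN they were Lat (532 FPKM), Cd2 (491 FPKM), Sla (402 FPKM) and Ptpn22 (342 FPKM), and only Ptpn22 overlapped with the next below it, Ptprc. Cd3g was 14th and Cd4 17th in dLN. Cd8a and Syk were the lowest in both tissues.

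Replicates were close for most members. The 2 CNS libraries lay within a factor of 1.5 of each other in 42 of 45 members, the exceptions being Cd8a, Syk and Ubash3b, and the 2 dLN libraries in 37 of 45. The dLN exceptions were Cd8a, Grap2, Ptpn6, Sit1, Sla2, Syk, Tec and Ubash3a, and all of these that were called were higher in CNS. Of the 24 members higher in CNS, dLN replicate 1 was above dLN replicate 2 in 22, and of the 10 lower in CNS in 1. The same count was not made over all genes, so it is not shown to be particular to the members. The median log2 ratio of all genes was 0.045 with all libraries, 0.085 without dLN replicate 1 and -0.0020 without dLN replicate 2. Without dLN replicate 1, 31 members and 6929 of all genes were called, and without dLN replicate 2, 30 members and 6596 genes, against 34 members and 7968 genes with all libraries. Without CNS replicate 2, which held the most myeloid RNA by its markers, 34 members were called, 24 higher and 10 lower, and 7342 of all genes.

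Other genes of the pathway, from a list of 44 chosen with earlier results known, also held members of both directions. Of the 42 found by symbol, 41 were tested and 34 were called, 25 of them higher and 9 lower in CNS, and over all genes 74.9% were called, 37.8% higher and 37.2% lower. The median log2 ratio was 0.47 for this list and 0.05 for all genes, and the share called was near the background. Among the largest rises were those of Mapk3, which encodes the kinase ERK1 (log2 ratio 3.11), Lax1, an inhibitory adaptor (2.87), Inpp5d, which encodes the lipid phosphatase SHIP-1 (2.50), and Skap2, a relative of Skap1 (2.45). Mapk3 was at 50.04 and 49.05 FPKM in CNS and at 6.02 and 3.91 FPKM in dLN, with both CNS libraries far above both dLN libraries. Among the largest falls were those of Orai1, the pore of the calcium channel that store depletion opens (-2.12), Map3k7, which encodes the kinase TAK1 (-1.03), the ubiquitin ligase Traf6 (-0.94) and Tespa1, a T cell protein of calcium signalling (-0.84). Orai1 was at 21.0 and 29.6 FPKM in CNS and at 101 and 124 FPKM in dLN, whereas its relative Orai2 rose (log2 ratio 1.89).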

How the data were processed

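The authors sorted the cells, made libraries with TruSeq RNA V2 kits, sequenced them on an Illumina HiSeq2500, and trimmed and mapped the reads. What the authors deposited is the FPKM of 33819 RefSeq transcripts (mm10), with a separate table for each tissue. The aligner and the program that computed FPKM are not given in the sources used here. The CNS header held both library names in 1 cell, and its values were assigned in that order.

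FPKM were summed by gene symbol. The 565 transcripts without a symbol were left out. A gene entered the test if its mean reached 1 FPKM in either tissue. The log2(FPKM + 1) values were fitted in limma 3.58.1 under R 4.3.3 (lmFit and trended eBayes, two-sided), with Benjamini-Hochberg adjustment over 10634 genes. No fit used or made counts. Depth was estimated from steps of low FPKM, whole within 0.05 for 88.8% to 92.0% of values. Fragment numbers were worked back from FPKM with this depth. Beside counting error they carry error of the depth and of how fragments were divided between transcripts.

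Members and lists were chosen with earlier results of these data known. Values in every library are given for CD3 genes, coreceptors, the 12 other called members with the largest ratios, and family pairs, and of the other pathway genes the 5 largest rises and 5 largest falls were to be named, some of which are not reported here. Alternatives covered the pseudocount, 2 scalings, the highest transcript, no filter, eBayes without trend, a replicate block and leaving out each library. Motifs were searched with Python 3.11.15 in RefSeq windows of 300 bases.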

Additional observations from a re-analysis of the deposited data

How the results depend on the processing

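Over 483 values of members under the alternatives, 455 kept their direction and side of the threshold, 15 lost the call, 6 gained one and 7 changed sign. The sign changed for members that had not passed the test. Scaled to the same sum, Cd6 was at -0.074, Lat at -0.12 and Ptprc at -0.022, and scaled to the same upper quartile Cd2 was at 0.12 (log2 ratios). With the highest transcript Ptprc was at -0.20. Leaving out 1 library at a time, Cd2 ranged from -0.045 to 0.018 and Lat from -0.015 to 0.18. Calls were lost in Cd5, Dgkz, Cd247 and Grb2. Scaling to the same sum moved the median of all genes by -0.17, and the same upper quartile by 0.12. Of all calls, 50.4% were higher in CNS as deposited, 43.1% with the same sum and 55.6% with the same upper quartile. Leaving out 1 library at a time gave 30 to 34 called members and 26 to 30 called other pathway genes, with the lone library of a tissue assumed to vary like the others. With a replicate block, 34 members (24 higher, 10 lower) and 7828 genes were called. Across genes, the difference between replicates 1 and 2 in CNS correlated with that in dLN at only 0.0933. This correlation cannot exclude a pairing. Same-numbered libraries were not treated as pairs, and by their sex-linked genes they did not come from the same mice. With no filter, 16782 genes were tested and 32 members were called. Cd8a and Syk in dLN, at 1 or 2 fragments, were at the limit of the depth.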
